A study of Mus musculus with 10 samples.

Results

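Plexins, neuropilins and semaphorins form one signalling system, and 10 of its genes were followed here: the plexin receptors Plxnd1, Plxna1, Plxna3, Plxnb2 and Plxnc1, the co-receptors Nrp1 and Nrp2, and the transmembrane semaphorins Sema4a, Sema4b and Sema4d. They were listed by symbol and matched to the Ensembl IDs of the count table through the symbol column of the log2 table, and all 10 of 10 were found among the 54307 genes of the count table. Plxnd1 was chosen by its measured level, which was higher in the knock-in macrophages in an earlier reading of these data, so its difference between the groups is given as a description and without a test. The other 9 were listed as its relatives and partners. RNA came from bone-marrow-derived macrophages, cells grown out of mouse bone marrow for 7 days in medium with 20% L-929 fibroblast-conditioned medium and 10% serum. The hWDFY3 KI/KI group held 5 male mice that are labelled as overexpressing human WDFY3, and the Ctrl group held 5 male wild-type control mice, all 6 to 8 weeks old. WDFY3 (ALFY) is a scaffold that helps autophagy pick its cargo. The sources used here do not give the locus or promoter of the knock-in, or the strain of the mice.

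Semaphorins are secreted or membrane-bound guidance proteins, first known from growing axons, and plexins are their main receptors. The intracellular part of a plexin acts on small GTPases and through them on the cytoskeleton and on integrin adhesion. Neuropilins carry no large signalling domain and serve as co-receptors for class 3 semaphorins and for VEGF. In macrophages and dendritic cells the system is known for roles in migration, adhesion and contact with T cells.

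The libraries held 14.62 to 36.39 M estimated counts, and 12411 genes, all 10 members among them, passed the low-count filter. A level is given as CPM, counts per M counts of the scaled library, with mean ± SD over 5 libraries per group, and differences are fitted log2 fold changes ± SE of knock-in over control from edgeR. The mouse gene Wdfy3 was at 120 ± 6.19 CPM in knock-in and 110 ± 9.83 CPM in control macrophages (adjusted p = 0.811). The human transcript was not measured here, so this value does not check the labels. All 8 macrophage markers on the list were tested and 0 were called, with 2 of 8 fold changes positive. Their summed level was 30059 to 37070 CPM in the knock-in and 24013 to 34907 CPM in the control libraries, and most of it was Lyz2, at 24625 to 31387 CPM in knock-in and 18250 to 28678 CPM in control libraries. Csf1r was at 1572 to 1637 CPM in knock-in and 1339 to 1861 CPM in control libraries, and Adgre1 at 808 to 847 CPM in knock-in and 860 to 1042 CPM in control libraries, where the groups did not overlap. Summed stromal markers ran from 2.58 to 92.6 CPM in the knock-in and from 5.87 to 157 CPM in the control libraries, and were highest in knock-in 4, control 1 and control 4. Endothelial cells and T cells are other known sites of Plxnd1 or Sema4d expression. The 8 endothelial markers summed to 95.6 to 142 CPM in the knock-in and 79.2 to 132 CPM in the control libraries, with 0 called. Most of that was Vwf, at 82.6 to 119 CPM in knock-in and 67.9 to 116 CPM in control libraries, followed by Kdr at 8.68 to 20.1 and 7.15 to 12.7 CPM, and Tie1 reached 3.0 CPM. The other 5, Cdh5 and Tek among them, stayed under 1 CPM in every library, as did 5 of the 6 T cell markers.

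Plxnd1 (ENSMUSG00000030123, chromosome 6, 115954811 to 115995005 in GRCm38, minus strand) encodes plexin-D1, a receptor for the secreted semaphorin Sema3e that is best known from blood vessel patterning and thymocyte migration. It was at 551, 575, 549, 526 and 537 CPM in the 5 knock-in libraries, against 301, 338, 426, 401 and 355 CPM in the 5 control libraries. The lowest knock-in library lay above the highest control library, and the knock-in libraries were spread less widely than the control libraries (CV 3.38% against 13.6%). The means were 548 ± 18.5 CPM in knock-in and 364 ± 49.5 CPM in control macrophages, a log2 fold change of 0.59 ± 0.083. Groups that did not overlap, with the knock-in higher, were seen for 0.733% of all tested genes, and 0.0403% were called higher, and nothing is read from this for Plxnd1. The endothelial sum was mostly the 1 gene Vwf, at 67.9 CPM in control 1 and 116 CPM in control 3. Among controls this sum, like Plxnd1, was lowest in control 1 (79.2 CPM) and highest in control 3 (132 CPM). The orders differed otherwise. Control 4 had a sum of 102 CPM with 401 CPM of Plxnd1, and control 2 a sum of 121 CPM with 338 CPM. In the knock-in group the highest sum, 142 CPM in knock-in 5, went with 537 CPM of Plxnd1. The part of endothelial RNA in the level of Plxnd1 was not tested. The values of Plxnd1 rest on 8853 to 12583 counts of Plxnd1 per knock-in library and 5466 to 14131 per control library. On the authors' deposited log2 scale Plxnd1 was at 13.44, 13.39, 13.38, 13.34 and 13.34 in the knock-in libraries and at 12.90, 12.87, 12.90, 13.03 and 12.93 in the control libraries, a mean difference of 0.45. The groups did not overlap on that scale either, which comes from the same 10 libraries by which Plxnd1 was picked. The call by which Plxnd1 was picked was lost in 4 of the 10 fits that left out 1 library (knock-in 1, 2 or 3, with log2 fold changes of 0.59, 0.57 and 0.59, or control 2, with 0.56).

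The 250 bases before the annotated start of Plxnd1 (RefSeq, GRCm38.p6, chr6:115995006-115995255, minus strand) are shown because Plxnd1 is the member that was picked. They lie outside the transcript, whose own GC content is given further below. Capitals mark GAGGAA, the core letters bound by the macrophage factor PU.1, and GGGCGG, the GC box.
Plxnd1: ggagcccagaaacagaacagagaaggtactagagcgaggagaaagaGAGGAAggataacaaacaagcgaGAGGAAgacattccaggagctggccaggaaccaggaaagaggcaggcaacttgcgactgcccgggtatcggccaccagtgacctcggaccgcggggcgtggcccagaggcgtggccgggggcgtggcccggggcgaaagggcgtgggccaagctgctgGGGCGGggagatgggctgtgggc
The window held GAGGAA in 2 places and GGGCGG in 1, on either strand and without overlap between them. GAGGAA occurred at least 1 time in 23.3% and GGGCGG in 32.7% of 32851 such windows of all annotated starts. Members that were not called held them too. GAGGAA was in 2 places before Plxnc1 and before start 1 of Sema4a, and GGGCGG in 4 places before Plxnc1 and 5 before Nrp2. Plxna3, Plxnb2, Nrp2 and Sema4d held no GAGGAA. The part of these letters in the level of any member was not tested. The E-box CACGTG was not in the window of Plxnd1. Nor was CCAAT, the CCAAT box, or the AP-1 site TGACTCA. The TATA box TATAAA was absent too. Its GC content was 64.8%, with 16 CG pairs, against medians of 52.4% and 6 over all windows. Of the 9 members with an annotated start in the table, Nrp2 had the most CG pairs (32) and a start of Sema4d the fewest (1).

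**Figure D1:**
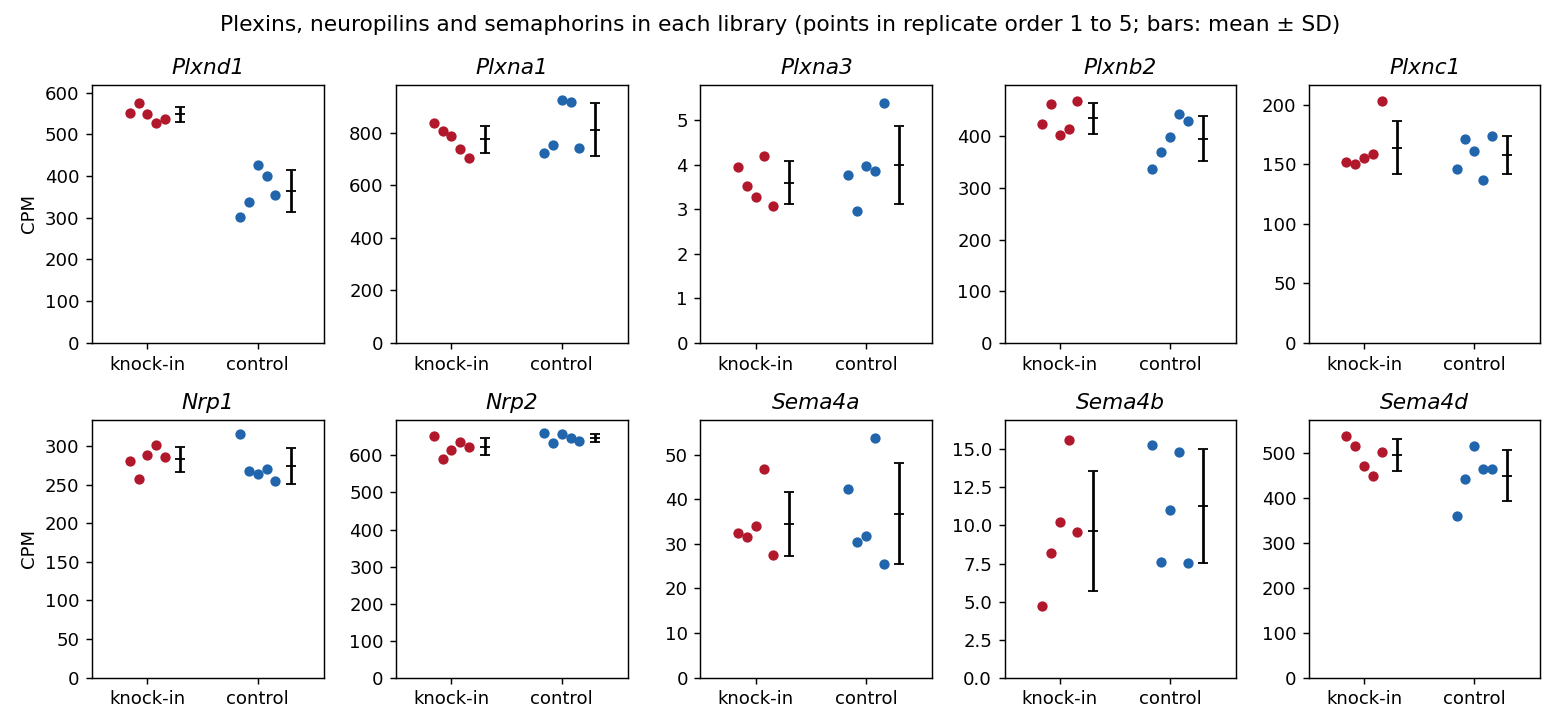
CPM of the 10 members in each library (y axis), with knock-in libraries in red at the left and control libraries in blue at the right of each panel, and the mean ± SD over 5 libraries in black. Plxnd1 is the panel in which the groups do not overlap, at 526 to 575 CPM in knock-in and 301 to 426 CPM in control libraries.

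Of the other 9 members, 0 passed an adjusted p under 0.05 in edgeR, 0 had an unadjusted p under 0.05, and DESeq2, limma-voom and limma-trend on the deposited log2 values each called 0. Over all tested genes edgeR called 10 (0.0806%), 5 higher (0.0403%) and 5 lower (0.0403%), and 6.21% had an unadjusted p under 0.05. DESeq2 called 0.378%, limma-voom 0.105% and limma-trend 0.0555% of the genes they tested. At such shares 0 of 9 is near the background. The groups did not overlap for 0 of the 9, where this held for 1.32% of all tested genes. The 9 log2 fold changes ran from -0.23 to 0.14 with a median of -0.053, 4 of them positive, against a median of -0.0046 over all tested genes.

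Coordinates of the members are those of GRCm38. No annotated gene overlaps Plxnd1, and of the genes overlapping the other members the filter was passed only by Gm37121, which overlaps Nrp2 on the same strand, with 119 counts over the 10 libraries. Among the plexins, Plxna1 and Plxnb2 were the other abundant receptors. Plxna1 (chromosome 6, 89316314 to 89362620, minus strand) pairs with neuropilins for class 3 semaphorins and with the Trem2 and Tyrobp complex in dendritic cells and osteoclasts. It was at 836, 808, 788, 740 and 705 CPM in the knock-in libraries and at 723, 754, 925, 917 and 743 CPM in the control libraries. All knock-in values lay inside the range of controls or just under it, and the log2 fold change was -0.067 ± 0.082 (interval of 2 SE from -0.23 to 0.098, adjusted p = 0.910). Plxnb2 (chromosome 15, 89155549 to 89180788, minus strand), a receptor for class 4 semaphorins and for angiogenin, was at 424, 463, 403, 415 and 469 CPM in the knock-in libraries and at 336, 369, 399, 443 and 430 CPM in the control libraries. Each knock-in value exceeded the middle control value, yet control 4 and control 5 reached into the knock-in range (log2 0.14 ± 0.079, interval from -0.020 to 0.29, adjusted p = 0.819).

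Plxnc1 (chromosome 10, 94790866 to 94944835, minus strand), the receptor for Sema7a and for viral semaphorins, was at 152, 150, 155, 159 and 203 CPM in the knock-in libraries and at 146, 171, 161, 137 and 174 CPM in the control libraries. Knock-in 5 stood above the other knock-in libraries, and the groups overlapped (log2 0.054 ± 0.093, adjusted p = 0.936). Without knock-in 5 the fold change turned to -0.035. Plxna3 (chromosome X, 74329066 to 74344689, plus strand), a receptor of class 3 semaphorins known mainly from neurons, was low, at 3.60 ± 0.472 CPM in knock-in and 3.99 ± 0.878 CPM in control macrophages (log2 -0.14 ± 0.17, adjusted p = 0.906).

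Of the neuropilins, Nrp2 varied least between libraries. Nrp2 (chromosome 1, 62703285 to 62818695, plus strand), a co-receptor for Sema3f and VEGF-C that carries polysialic acid on myeloid cells, was at 653, 591, 616, 637 and 623 CPM in the knock-in libraries and at 660, 634, 658, 647 and 638 CPM in the control libraries. The knock-in values lay within or below the narrow control range (CV 3.74% in knock-in, 1.79% in control), and the log2 fold change of -0.053 ± 0.046 did not pass (adjusted p = 0.880). Nrp1 (chromosome 8, 128358604 to 128503363, plus strand), a co-receptor for Sema3a and VEGF-A, was at 280, 257, 289, 301 and 286 CPM in the knock-in libraries and at 315, 268, 264, 270 and 255 CPM in the control libraries. Control 1 stood above all other libraries (log2 0.043 ± 0.066, adjusted p = 0.932).

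On the ligand side Sema4d dominated. Sema4d (CD100; chromosome 13, 51685529 to 51793747, minus strand), which binds Plxnb1, Plxnb2 and the lymphocyte receptor Cd72, was at 539, 516, 473, 450 and 504 CPM in the knock-in libraries and at 361, 443, 516, 465 and 466 CPM in the control libraries. Control 1 was the lowest, and the groups overlapped (log2 0.14 ± 0.086, interval from -0.031 to 0.31, adjusted p = 0.831). Sema4a (chromosome 3, 88435959 to 88461182, minus strand), which costimulates T cells and is a ligand of several plexins including plexin-D1, was at 32.5, 31.5, 34.1, 46.7 and 27.6 CPM in the knock-in libraries and at 42.4, 30.5, 31.8, 53.7 and 25.5 CPM in the control libraries (log2 -0.10 ± 0.21, adjusted p = 0.952). Sema4b (chromosome 7, 80186841 to 80226527, plus strand), a less studied relative, was at 4.73, 8.19, 10.2, 15.6 and 9.56 CPM in the knock-in libraries and at 15.3, 7.61, 11, 14.8 and 7.54 CPM in the control libraries (log2 -0.23 ± 0.32, adjusted p = 0.927). For both genes the highest values lay in the same 3 libraries, knock-in 4, control 1 and control 4.

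**Figure D2:**
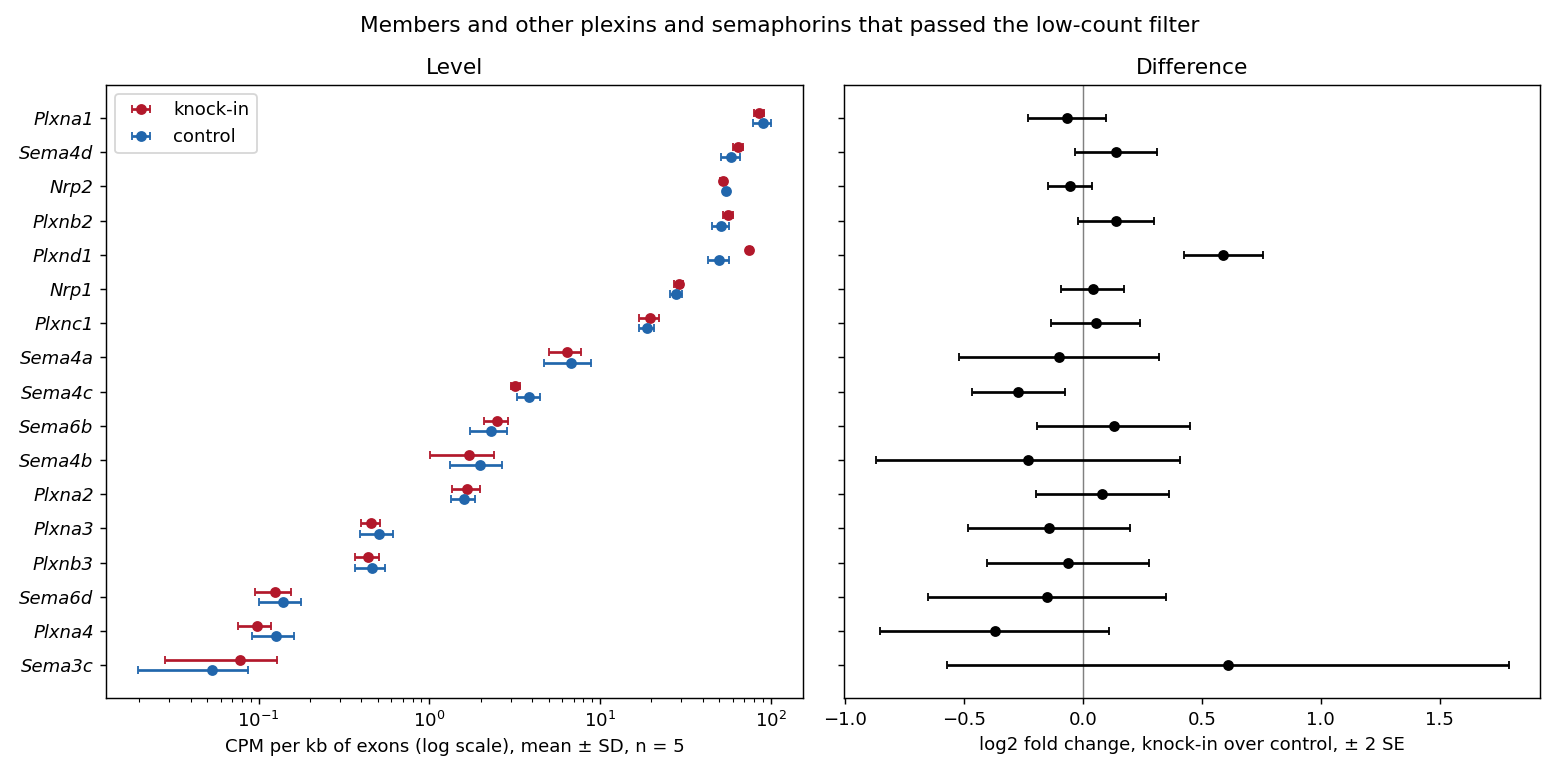
Left, level of each member and of the other tested plexins and semaphorins as CPM per kb of exons (log axis), mean ± SD over 5 knock-in (red) and 5 control (blue) libraries. Right, fitted log2 fold change of knock-in over control ± 2 SE, with Plxnd1 at 0.59 and the other members between -0.23 and 0.14.

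Between genes, levels were compared per kb of the union of annotated exons. In control macrophages Plxna1 was the highest (89.7 ± 11.1 CPM per kb) and lay apart from the next. Sema4d (58.6 ± 7.36), Nrp2 (54.7 ± 0.978), Plxnb2 (51.2 ± 5.70) and Plxnd1 (49.9 ± 6.78) followed with ranges over libraries that overlapped from one gene to the next, so that their order was not resolved. Nrp1 (28.0 ± 2.38), Plxnc1 (18.9 ± 1.92), Sema4a (6.80 ± 2.09), Sema4b (1.99 ± 0.663) and Plxna3 (0.506 ± 0.111) came next, each with a range apart from that of its neighbours. By this exon length Plxnd1 stood at rank 2 of the 10 in knock-in macrophages, against an unresolved rank 5 in controls. Plxnd1 was picked for its higher level in the knock-in, so the direction of this shift was set by the choice. The upper ranks depended on the length used. Per kb of the longest transcript Sema4d had rank 1, Nrp2 rank 2, Plxna1 rank 3 and Plxnd1 rank 6 in controls. Ranks per kb of the longest transcript were not taken in the knock-in, so its rank 2 holds for the exon union only.

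Over all 9 mouse plexins the summed level was 239 ± 7.40 CPM per kb in knock-in and 212 ± 21.1 CPM per kb in control macrophages. Plxnd1 made up 30.7 to 31.9% of that sum in the knock-in libraries and 22.3 to 24.9% in the control libraries. Plxna1 made up 32.5 to 37.9% in knock-in and 39.0 to 43.6% in control libraries. As a share of the sum, Plxnd1 varied much less between control libraries than as CPM. The shares add to a fixed total, so a higher share of Plxnd1 lowers the others, and the choice of Plxnd1 fixes the direction. Among 20 semaphorins Sema4d took 81.9 ± 3.18% of the summed level in knock-in and 79.0 ± 4.41% in control macrophages, and Sema4a 8.12 ± 1.91% and 9.23 ± 2.84%.

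Of the 21 other plexins and semaphorins 7 passed the low-count filter, and 0 were called by edgeR, DESeq2, limma-voom or limma-trend. Their median log2 fold change was -0.062. Sema4c, a ligand of Plxnb2, was the 1 gene with an unadjusted p under 0.05, at 14.7 ± 0.862 CPM in knock-in and 17.7 ± 2.71 CPM in control macrophages (log2 -0.27 ± 0.098, adjusted p = 0.700). Plxna2 was at 28.7 ± 5.43 CPM in knock-in and 27.3 ± 4.40 CPM in control macrophages, and Sema6b, a transmembrane ligand of class A plexins, at 9.92 ± 1.6 and 9.10 ± 2.19 CPM. Plxnb3 was at 2.85 ± 0.453 CPM in knock-in and 2.98 ± 0.606 CPM in control macrophages, Plxna4 at 1.37 ± 0.306 and 1.79 ± 0.492 CPM, Sema6d at 1.32 ± 0.314 and 1.46 ± 0.398 CPM, and Sema3c at 0.560 ± 0.358 and 0.380 ± 0.240 CPM. The remaining 14 genes did not pass the filter.

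Several textbook partners of the abundant receptors were therefore near the limit of detection. Sema3e, the secreted ligand of plexin-D1, had 0, 2, 1, 0 and 1 counts in the knock-in libraries and 1, 4, 0, 5 and 1 counts in the control libraries. Plxnb1, the high-affinity receptor of Sema4d, had 1, 8, 0, 7 and 4 counts in the knock-in and 8, 9, 3, 16 and 1 counts in the control libraries. Sema3a, a neuropilin-1 ligand, had 1 count in all over the knock-in and 3 over the control libraries. Ligand from other cells or from the serum and conditioned medium is not seen by these counts.

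Of 55 further genes of the system, listed by role, 48 were tested and 0 were called by edgeR, DESeq2, limma-voom or limma-trend, and 3 of 48 had an unadjusted p under 0.05, close to the 6.21% of all tested genes. Of 13 co-receptors and other semaphorin receptors 9 were tested. The Plxna1 partners Trem2 and Tyrobp were abundant, Trem2 at 720 ± 29.3 CPM in knock-in and 731 ± 43.2 CPM in control macrophages and Tyrobp at 1047 ± 19.6 and 1037 ± 80.8 CPM. Cd72 was at 328 ± 54.3 CPM in knock-in and 316 ± 51.9 CPM in control macrophages, Itgb1, the integrin chain used by Sema7a, at 583 ± 23.8 and 561 ± 52.2 CPM, and the VEGF receptor Kdr at 12.9 ± 4.43 and 10.9 ± 2.33 CPM. Met, the HGF receptor that associates with class B plexins, was at 4.92, 12.7, 3.36, 6.71 and 3.35 CPM in the knock-in libraries and at 8.29, 11.6, 12.3, 23.7 and 10.4 CPM in the control libraries. The groups overlapped through knock-in 2 (log2 -1.13 ± 0.43, adjusted p = 0.744).

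All 32 plexin effectors and partners were tested (median log2 fold change 0.012). Gipc1, the PDZ protein that binds the tails of plexin-D1 and neuropilin-1, was at 63.9 ± 1.29 CPM in knock-in and 60.8 ± 9.80 CPM in control macrophages, and Sh3bp1, a Rac GAP that works with plexin-D1, at 55.6 ± 4.18 and 54.7 ± 6.42 CPM. The class B plexin partners Arhgef11 and Arhgef12 were measured too, Arhgef11 at 54.8 ± 2.55 CPM in knock-in and 54.8 ± 3.51 CPM in control macrophages and Arhgef12 at 38.1 ± 1.94 and 37.7 ± 3.79 CPM. The smallest p belonged to Dpysl2 (CRMP2), a mediator of Sema3a signals, at 31.7 ± 3.18 and 26 ± 4.87 CPM (log2 0.29 ± 0.12, adjusted p = 0.768). Rap1a, a GTPase substrate of plexins, was at 147 ± 8.94 and 134 ± 7.35 CPM (adjusted p = 0.787), and Rnd1, a small GTPase that binds plexins, at 0.380 ± 0.129 and 0.606 ± 0.230 CPM (adjusted p = 0.810).

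Of 7 neuropilin ligands other than semaphorins 4 were tested, with Vegfa at 104 ± 16.3 CPM in knock-in and 102 ± 13.0 CPM in control macrophages, Vegfb at 18.7 ± 3.97 and 17.6 ± 3.21 CPM and Hgf at 22.0 ± 0.832 and 21.9 ± 1.66 CPM. The 3 sheddases that release semaphorins from the membrane were tested too. Adam17 was at 255 ± 12.3 CPM in knock-in and 253 ± 31.9 CPM in control macrophages, Adam10 at 143 ± 7.95 and 151 ± 10.6 CPM, and Mmp14 at 14.0 ± 6.19 and 14.9 ± 4.62 CPM.

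The levels of some semaphorins went with those of stromal markers across libraries. In knock-in 4, control 1 and control 4, where 12 stromal markers summed to 92.6, 157 and 157 CPM against 2.58 to 23.0 CPM elsewhere, Sema4a was at 46.7, 42.4 and 53.7 CPM, against 25.5 to 34.1 CPM in the other libraries. Sema4b was at 15.6, 15.3 and 14.8 CPM in these 3 libraries and at 4.73 to 11 CPM in the others. Sema7a, the ligand of Plxnc1, was at 1.23, 2.06 and 1.93 CPM against 0.065 to 0.480 CPM, and the sheddase Mmp14 at 24.9, 22.1 and 17.1 CPM against 9.70 to 12.6 CPM. Sema3c, Sema6b and Plxna2 were lowest in these 3 libraries, with Plxna2 at 24.2, 24.3 and 21 CPM against 25.9 to 37.7 CPM. Sema3c and Sema7a rest on few counts. Sema3c had 2, 2 and 5 counts in these libraries and 6 to 20 in the others. Sema7a, which did not pass the low-count filter, had 24, 42 and 68 counts against 1 to 8. The same libraries also held the most neutrophil marker RNA (19.8, 39.6 and 50.7 CPM), and the part of either cell type in these levels was not tested. In bulk RNA, fewer cells of a type and less RNA per cell cannot be told apart. Without the 3 libraries the log2 fold change of Plxnd1 was 0.57, and that of Sema4a turned to 0.10 (adjusted p = 0.922).

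**Figure D3:**
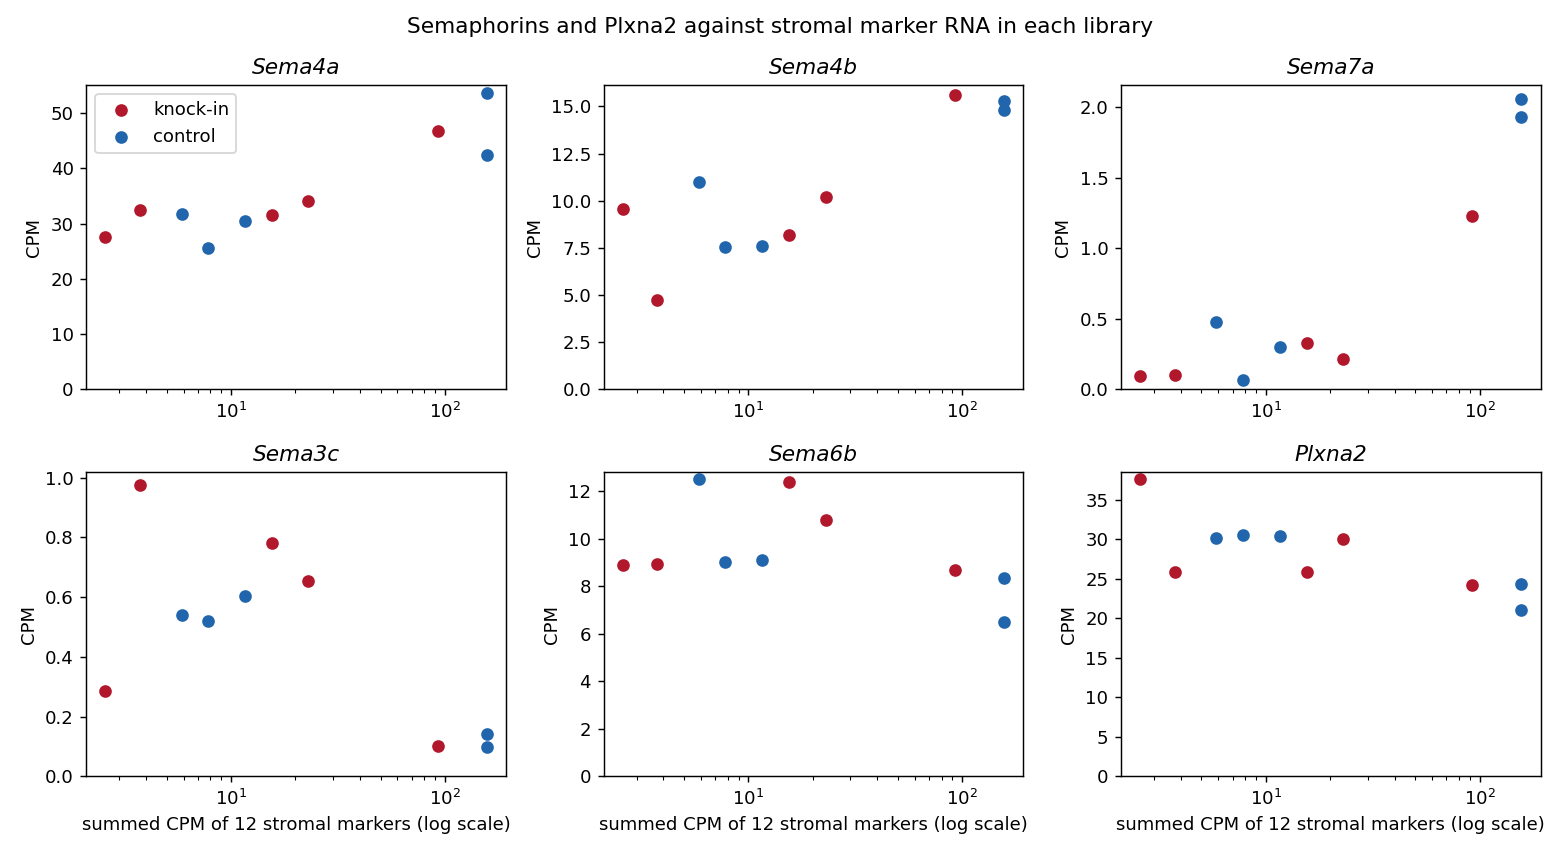
CPM of 5 semaphorins and Plxna2 (y axes) against the summed CPM of 12 stromal markers (x axis, log scale), 1 point per knock-in (red) or control (blue) library. The 3 libraries at the right, knock-in 4, control 1 and control 4, hold the highest values of Sema4a, Sema4b and Sema7a and the lowest of Sema3c, Sema6b and Plxna2. The values of Sema3c and Sema7a rest on few counts.

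Among control libraries the level of Plxnd1 went with a library's GC slope. The longest annotated transcript of Plxnd1 has a GC content of 60.8%, and 2.18% of tested genes are at or above that value (median 49.1%). Plxna1 is at 57.3%, Plxnb2 at 57.4%, Sema4b at 56.6%, Sema4a at 56.5% and Plxna3 at 55.0%. Sema4d is at 53.4%, Nrp2 at 51.1%, Plxnc1 at 49.3% and Nrp1 at 41.9%. For each library the slope of gene levels on GC content was taken over 6980 genes with a mean log2 CPM of at least 4. It was -0.0255, 0.0493, -0.00785, -0.00115 and 0.0125 log2 CPM per 10 GC points in knock-in 1 to 5, and -0.114, -0.0726, 0.127, 0.0756 and -0.0428 in control 1 to 5. The control libraries thus differed more from each other in GC slope than the knock-in libraries did, and Plxnd1 stood in the same order as the slope in all 5 of them. With the GC slope as a covariate the log2 fold change of Plxnd1 was 0.58, and 0 of the other 9 members were called. The part of GC slope in the spread of Plxnd1 was not tested.

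**Figure D4:**
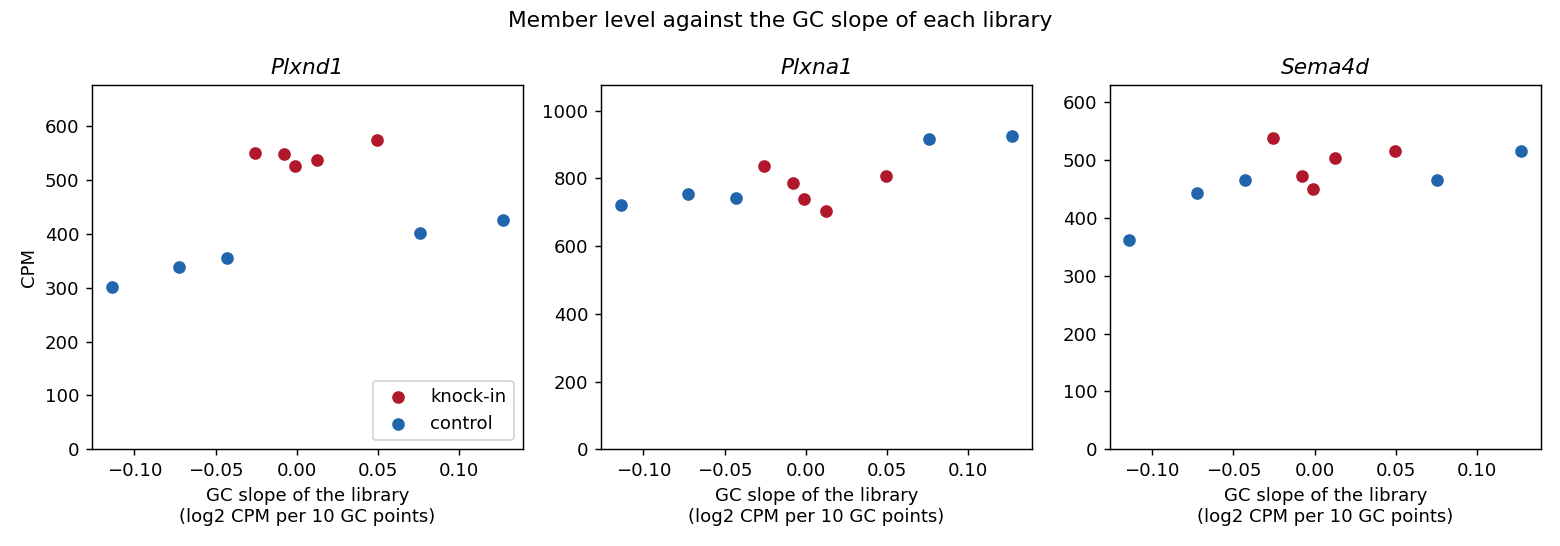
CPM of Plxnd1, Plxna1 and Sema4d (y axes, from 0) against the GC slope of each library (x axis, log2 CPM per 10 GC points), knock-in in red and control in blue. Control libraries with a higher slope have more Plxnd1, from 301 CPM at -0.114 to 426 CPM at 0.127, and all 5 knock-in libraries lie above them at slopes in between.

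After the group means were removed, the 5 genes outside the family whose log2 CPM went most with Plxnd1 over the 10 libraries were Srebf1, Map3k11, Gm7367, Agap3 and Cic, each with a Pearson r of 0.97. Their transcripts have GC contents of 58.4, 61.3, 63.4, 61.2 and 61.6%. Of the members, Plxna1 (r = 0.86), Sema4d (0.85) and Plxnb2 (0.66) went with Plxnd1, while Nrp1 went against it (-0.67). Across the 6980 genes this likeness to Plxnd1 correlated with GC content at 0.60. These are descriptions over libraries that share depth and composition effects, and genes are not independent replicates. The SD of Plxnd1 as log2 CPM was 0.05 in knock-in and 0.20 in control libraries, so these r values rest mostly on the 5 control libraries. On the authors' deposited log2 scale the likeness differed. It was 0.04 for Srebf1, 0.30 for Map3k11, -0.07 for Agap3, and 0.29 for Cic, and its correlation with GC content was 0.18. Among the members it was 0.16 for Plxna1, 0.31 for Sema4d, 0.47 for Plxnb2 and -0.16 for Nrp1, all smaller in size than as log2 CPM, while Plxnc1 was at -0.64, against -0.14 as log2 CPM. As log2 CPM the likeness was 0.11 for Plxna3, -0.02 for Sema4a, -0.10 for Sema4b and -0.11 for Nrp2. The transcripts of Plxna3, Sema4a and Sema4b have a higher GC content than that of Sema4d, whose likeness was 0.85. Plxna3, Sema4a, Sema4b and Nrp2 lay between -0.23 and 0.30 on the deposited scale. There the SD of Plxnd1 was 0.04 in knock-in and 0.06 in control libraries, against 0.05 and 0.20 as log2 CPM.

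Genes next to the members were examined as well. The distance windows were taken between the lower coordinates of genes. For Plxnd1, on the minus strand, that is 115954811, the far end of the gene from the annotated start used above. Within 1 Mb of it 21 other genes were tested. Of these 2 were called and 7 had an unadjusted p under 0.05, where these shares were 0.0806% and 6.21% over all tested genes. Around each of the other 9 members 0 neighbours were called by edgeR, among 4 tested genes near Nrp1 and up to 51 near Sema4a. Those at an unadjusted p under 0.05 numbered 0 to 5, with 5 of 35 near Plxna3 and 2 of 51 near Sema4a. Within 0.5 Mb it was 5 of 21 near Plxna3 and 6 of 16 near Plxnd1. Whether these neighbourhoods differ was not tested. The next tested gene on one side is Tmcc1, which encodes an endoplasmic reticulum membrane protein, 23.6 kb from Plxnd1 and on the same strand. It was at 38.7, 32.4, 36.5, 42.9 and 35.8 CPM in the knock-in libraries and at 69.5, 62.4, 56.3, 78.5 and 49.3 CPM in the control libraries. The highest knock-in value lay below the lowest control value, the reverse of Plxnd1 (log2 -0.76 ± 0.12, adjusted p = 0.0390). The log2 fold change of Tmcc1 was -0.84 to -0.44 over the 21 other fits, and its adjusted p from 8.33e-07 to 0.521. The call was lost in 10 of them, among them the fits without knock-in 1, 2, 3 or 5 or control 1, 2 or 3. With the GC slope as a covariate the fold change was again -0.76 (adjusted p = 0.128).

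On the other side the nearest tested gene, Ift122 of the ciliary transport machinery, lies 28.1 kb away and was at 7.80 ± 0.836 CPM in knock-in and 8.67 ± 1.43 CPM in control macrophages (log2 -0.15 ± 0.12, adjusted p = 0.866). Next to it Mbd4, a DNA glycosylase that was named after its values were seen, was at 9.85, 10.1, 8.90, 7.53 and 10.0 CPM in the knock-in libraries and at 5.05, 6.19, 5.10, 4.71 and 6.76 CPM in the control libraries. The groups did not overlap, but the difference did not pass (log2 0.74 ± 0.12, adjusted p = 0.0584, range over the other fits from 1.06e-04 to 0.282). Rassf4, 638 kb away, was lower at 436 ± 14.0 CPM in knock-in and 597 ± 41.4 CPM in control macrophages (adjusted p = 0.00493) and was called in all 21 other fits.

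Of the 10 called genes of the series 6 besides Plxnd1 lie on chromosome 6. Earlier results of these data had already found several called genes on this chromosome. The share of all tested genes that lie there was not taken, so nothing is read from the count. Beside Tmcc1 and Rassf4 the 6 include Gt(ROSA)26Sor and its neighbour Setd5, 2.89 and 2.88 Mb below Plxnd1 by lower coordinates. Apobec1, 6.62 Mb above Plxnd1 by the same measure, is another. Gt(ROSA)26Sor was at 0.0489 ± 0.0483 CPM in knock-in and 3.58 ± 1.72 CPM in control macrophages. Setd5 was at 50.5 ± 2.29 CPM in knock-in and 73.1 ± 2.68 CPM in control macrophages. Apobec1, an RNA-editing enzyme, was at 932 ± 154 CPM in knock-in and 291 ± 9.81 CPM in control macrophages. Other genes of the semaphorin system on this chromosome were not called. Mical3, an actin-oxidising plexin effector 4.98 Mb above Plxnd1, was at 5.84 ± 1.14 CPM in knock-in and 5.65 ± 0.357 CPM in control macrophages (log2 0.046 ± 0.13, adjusted p = 0.970), and Plxna1 lies on the same chromosome.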

How the data were processed

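Strand-specific poly(A)+ libraries of macrophages from 5 knock-in and 5 control mice were read as 100-bp pairs, per the labels. Salmon 1.6.0, MultiQC and DESeq2 1.34.0 are listed in the submitters' processing notes, as are GRCm39 and mm10, with no role for either build. The strand setting of Salmon and its annotation are not stated there. The authors deposited estimated counts per gene, and a second table of log2 values for 14409 gene IDs whose name marks it as regularized-log output. Any length or composition correction behind the log2 values is not stated.

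Estimated counts were rounded and fitted with edgeR 4.0.16 in R 4.3.3, using TMM scaling, filterByExpr (minimum count 10, minimum total 15), robust dispersions and a quasi-likelihood F-test of genotype on the 10 libraries. Benjamini-Hochberg adjustment ran over 12411 genes, with calls at 0.05. The SE is the fold change over the square root of F. Coordinates, exon lengths and GC content come from GENCODE M21 (GRCm38) by gene ID, and the deposited IDs carry later versions. The edgeR, DESeq2 and limma-voom fits were also run on simulated counts. These had the same dispersion for every gene and no GC or stromal differences between libraries. The outcome is not given here and is not used as support. Between libraries of the same group the chi-square was 8.91 to 54.6 per gene, so none looked like a copy of another.

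The members, gene lists and tests were chosen with earlier results of these data known. Named genes are the members, the other tested plexins and semaphorins, from each pathway list the called genes, the 3 with the smallest p and Trem2, Tyrobp, Cd72, Met, Gipc1, Sh3bp1, Arhgef11, Arhgef12, Mmp14, Adam17 and Vegfa, the called and nearest genes within 1 Mb of Plxnd1, Gt(ROSA)26Sor, Setd5, Rassf4 and Apobec1, and the 5 genes outside the family with a mean log2 CPM of at least 1 that were most like Plxnd1. Other settings were size factors by RLE or upper quartile, DESeq2 1.42.0, limma 3.58.1 (voom weights on the counts, and a trend fit of the deposited log2 values), other filters, a replicate block and fits without 1 or 3 libraries. Fits with a stromal score or the GC slope as a covariate, and likeness on the deposited log2 values, were added after seeing the data.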

Additional observations from a re-analysis of the deposited data

Results flagged for a closer look

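Among 34 sets of 5 libraries (17 tested plexins, neuropilins and semaphorins in 2 groups), 3 held a library far from the other 4, where chance gives about 1 in 20. Plxnc1 in knock-in 5 was at 203 CPM, above 150 to 159 CPM in the other knock-in libraries. Nrp1 in control 1 was at 315 CPM, above 255 to 270 CPM in the other controls, and Plxnb3 in control 1 at 4.02 CPM. Control 1 also had the lowest GC slope (-0.114 log2 CPM per 10 GC points) and was rich in stromal marker RNA (157 CPM). In the other stroma-rich libraries Nrp1 was at 301 CPM (knock-in 4) and 270 CPM (control 4). Knock-in 5 had the least stromal marker RNA (2.58 CPM). The part of GC slope or stromal RNA in these values was not tested.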

How the results depend on the processing

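The log2 fold change of Plxnd1, whose sign its choice fixes, was 0.45 (limma-trend on the deposited log2 values) to 0.60, and 0.53 to 0.65 leaving out 1 library. The call by which it was chosen was lost in 4 of those 10 fits. The count of called members other than Plxnd1, of other plexins and semaphorins and of pathway genes was 0 under each of the 21. Over all genes 10 were called, against 52 by DESeq2, 38 when knock-in 4, control 1 and control 4, rich in stromal RNA, were left out, and 6 to 23 leaving out 1 library (6 without knock-in 1, 2 or 3 or control 2, and 23 without knock-in 4). Called neighbours of Plxnd1 were 1 within 0.5 Mb, against 2 within 1 Mb, since Rassf4 lies beyond. Uncalled members changed sign in 7 cases. Plxnc1 turned to -0.032 and Sema4a to 0.10 without those 3 libraries. Adding the stromal score to the fit turned Plxnc1 to -0.005, Sema4a to 0.10 and Sema4b to 0.0027. Leaving out 1 library, Plxnc1 ran from -0.035 (without knock-in 5) to 0.092 and Sema4a from -0.24 to 0.083 (without control 4). The cause was not tested. The replicate number as a block gave 12 called genes and a log2 fold change of 0.60 for Plxnd1. Same-numbered libraries deviated together with correlations from -0.20 to 0.51, so the numbers were not taken to pair mice. Low counts limit the class 3 semaphorins, and Sema4b varied widely between libraries (CV 40.9% in knock-in, 33.3% in control).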
